A study of Drosophila melanogaster with 2 samples.

Results

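Intergenic regions recovered with danr, the product of distal antenna-related, were described from the peak lists of a chromatin immunoprecipitation and sequencing (ChIP-seq) experiment on Drosophila melanogaster. The lists are thresholded on the irreproducible discovery rate (IDR), which scores how well a peak's rank repeats between 2 sets of peaks. Overlapping rows of the series' list were merged, and a region was kept if its summit, the base of highest signal in its strongest row, lay more than 500 bp from every annotated transcript start and inside no annotated gene, with transposable element entries left out of the annotation. Of 2632 regions on the 7 assembled chromosomes and arms, 355 met this rule, which is 13.5% (95% exact binomial interval 12.2 to 14.9%). The other regions, 1224 promoter regions within 500 bp of a start and 1053 within genes, served for comparison. The series has 1 group of 2 biological replicates, each of whole embryos aged 0 to 24 h from the transgenic strain danr-GFP. Its danr-eGFP fusion, danr joined to green fluorescent protein, was pulled down with an antibody to GFP, per the sample descriptions, while the antibody field names danr. Both replicates carry the transgene, and no library without it was analysed here. Such embryos pool all stages and tissues, so a region bound in few cells and a region bound weakly in many cannot be told apart.

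The danr protein and its paralog dan are nuclear proteins with a pipsqueak-type DNA-binding domain, known for their part in eye and antenna development and in neural progenitors of the embryo. Sequence between genes in this compact genome holds distal enhancers, insulators and silencer elements as well as start sites that the annotation lacks, and a summit there cannot be assigned to a gene by position alone. Genes are named below as the neighbours of a region, not as its targets. The value called signal is the authors' own enrichment value at a peak, used here to rank and describe regions.

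The windows of 101 bp around the summit show what the strongest of these regions look like at base level. The 3 upstream of chinmo are named by how far they lie from its start. Shown are the 10 of highest signal on arms 2L, 3L, 3R and X and the 1 region between danr and dan, on the plus strand of dm6 as in RefSeq's sequence of that assembly, 5′ to 3′. Capitals mark TATAAA and ATATTA on either strand (also as TTTATA and TAATAT), and lower case is all other sequence.
tara region: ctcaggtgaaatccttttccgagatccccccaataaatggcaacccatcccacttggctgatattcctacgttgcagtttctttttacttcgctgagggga
chinmo region, middle: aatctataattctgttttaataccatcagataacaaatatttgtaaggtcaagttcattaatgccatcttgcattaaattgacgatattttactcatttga
chinmo region, far: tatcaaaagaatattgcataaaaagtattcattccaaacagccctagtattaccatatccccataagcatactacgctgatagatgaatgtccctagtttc
chinmo region, near: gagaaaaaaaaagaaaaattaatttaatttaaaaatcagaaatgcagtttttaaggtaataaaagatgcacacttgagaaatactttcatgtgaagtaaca
CG17896 region: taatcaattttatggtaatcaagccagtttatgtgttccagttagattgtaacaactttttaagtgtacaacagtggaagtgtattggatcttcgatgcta
CG43245 region: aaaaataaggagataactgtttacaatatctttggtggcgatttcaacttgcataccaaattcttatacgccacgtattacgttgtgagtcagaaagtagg
CG31668 region: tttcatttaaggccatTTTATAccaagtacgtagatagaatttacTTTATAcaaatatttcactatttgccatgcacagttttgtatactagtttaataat
foxo region: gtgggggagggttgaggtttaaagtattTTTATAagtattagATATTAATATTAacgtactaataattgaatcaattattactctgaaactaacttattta
CG7560 region: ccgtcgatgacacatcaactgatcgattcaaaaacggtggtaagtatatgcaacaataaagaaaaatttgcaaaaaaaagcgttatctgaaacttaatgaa
CG3149 region: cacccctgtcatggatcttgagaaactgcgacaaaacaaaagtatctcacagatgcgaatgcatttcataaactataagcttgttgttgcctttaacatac
dan upstream region: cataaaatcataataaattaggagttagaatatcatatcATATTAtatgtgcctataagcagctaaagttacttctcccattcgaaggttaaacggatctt
The window near tara lies at 3R:16222441-16222541 and has an A+T content of 52.5%. Among the chinmo windows printed, the one nearest the start of chinmo, at 2L:1643401-1643501, reaches 77.2%. TATAAA occurs in the windows near CG31668 and foxo and in none of the other 9 printed.

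The strongest of these regions stood near the top of the whole list. The first, at 2R:13035215-13035460, reached 719 and rank 14 of all 2653 regions, with 416 in replicate 1 and 315 in replicate 2. It lay between the 3′ ends of Su(z)2 (FBgn0265623) and CG13323, 27432 bp past Su(z)2, a Polycomb group gene. The second, at 3R:16222368-16222611, reached 621, with 273 in replicate 1 and 349 in replicate 2. Its nearest start, 904 bp away, was that of a non-coding RNA gene, lncRNA:CR45643, and the nearest coding start, at 3160 bp, was that of tara, a gene that interacts with trithorax group genes. A region at 2R:22802873-22803078, signal 374, lay in the gap of 1340 bp between the 3′ ends of blw, which encodes an ATP synthase subunit, and CycB, the mitotic cyclin B gene. Its signal was 187 in replicate 1 and 190 in replicate 2. Among the other regions of highest signal, that at X:493913-494107, 538 bp upstream of CG17896, reached 357 (153 in replicate 1, 195 in replicate 2), and that at 2L:2202299-2202503, 3735 bp past the start of CG31668, reached 317 (177 and 144). At X:5696432-5696894, 600 bp from lncRNA:CR42794 and nearest to CG3149 among coding genes, the signal was 265, with 165 in replicate 1 and 95.9 in replicate 2. The regions at 3R:21520300-21520437, 570 bp from sp3 in the gap it shares with the homeobox gene C15, and at 3L:9855881-9856027, 665 bp from RasGAP1, a gene of a Ras GTPase-activating protein, had 260 and 256. All 15 regions of highest signal, from 256 to 719, were in the thresholded list of each replicate and in the conservative list. Only 21 of the 355 were among the strongest 10% of all regions.

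Several strong regions stood beside one another upstream of chinmo (FBgn0086758), which encodes a BTB zinc-finger protein that sets the temporal identity of neurons. Its start was the nearest coding start to 6 intergenic regions, all within 18421 bp, which equals the number for CG43245 and exceeds that for any other coding gene. The 3 strongest lay in 1 gap of 20910 bp between lncRNA:CR44603 and lncRNA:CR45695. The signal at 2L:1638636-1638924 was 568, with 264 in replicate 1 and 296 in replicate 2. At 2L:1632729-1632945 it was 455, with 289 in replicate 1 and 158 in replicate 2, and at 2L:1643410-1643545 it was 326, with 199 and 121. The first was slightly higher in replicate 2, and the other two were higher in replicate 1. The other 3 had signals of 135, 77.9 and 75.2, at 1530, 1970 and 16915 bp from the start. The gene was chosen after these values were seen.

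Gaps with 5 regions each were found at 4 places, and 3 of them were on 3L. Upstream of CG43245, in a gap of 75047 bp that ends at NijA, an adhesion protein gene, the regions had signals of 341, 253, 117, 99.0 and 78.2, and 3 of them were in both replicates' lists. The strongest, at 3L:10739748-10740230, lay 32070 bp from the nearest start and had 159 in replicate 1 and 186 in replicate 2. The gap of 19063 bp between lncRNA:CR44363 and CG7560 held signals of 311 (at 3L:11418317-11418472), 195, 120, 79.3 and 73.6. The gap of 32964 bp between tRNA:Ile-TAT-1-2 and CG13898 held 248, 157, 90.9, 72.6 and 62.9. Another 9 gaps held 3 regions each. The one with the strongest region, 70507 bp between vvl and lncRNA:CR45115, had signals of 166, 142 and 68.2, from 17484 to 33808 bp past the start of vvl, the gene of a POU-domain factor of the trachea and nervous system. In all, 133 of the 355 regions (37.5%) shared a gap with another, and 222 stood alone in theirs.

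A pair of regions lay in the gap of 10284 bp between the 3′ ends of CG13321 and Psc, the paralog of Su(z)2. The stronger, at 2R:12958034-12958377, stood at 274, with 126 in replicate 1 and 147 in replicate 2, and its summit was 7791 bp from Psc. Its neighbour, named after its value was seen, had 167, with 93.1 in replicate 1 and 67.9 in replicate 2, and it was in the thresholded list of replicate 2 only.

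Between danr and dan themselves 1 region qualified. It lay at 3R:25168291-25168634, 15920 bp upstream of dan (FBgn0039286), in the gap between lncRNA:CR46474 and lobo, with a signal of 67.7 and rank 1788. Replicate 1 gave 48 and replicate 2 gave 18.7, and the region was in the thresholded list of replicate 1 only and not in the conservative list. Its summit window is the last of those printed above.

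Segmentation genes bordered gaps with these regions more often than coding genes at large, and more of them border a long gap. Of 29 segmentation genes, 8 bordered a gap that held a region (27.6%), against 372 of 13968 protein-coding genes (2.66%). Among genes that border a gap of over 10 kb, a region lay in it for 6 of 17 segmentation genes (35.3%), against 162 of 1176 protein-coding genes (13.8%). No test over a list was run. The region between slp1 and slp2, forkhead-domain pair-rule genes, was the strongest, at 2L:3832348-3832691 at 220, 83.7 in replicate 1 and 135 in replicate 2. Those near ptc, the Hedgehog receptor gene, oc, the orthodenticle head gene, and ems, another head gene, had 110, 95.8 and 90.6, and these were in both lists. The remaining regions of this list were named after their values were seen. A second region beside ems had 60.7 and was in neither list, and a second beside oc had 56.8 and was in 1. Near odd the signal was 82.6, and between Wnt4 and wg, 2 Wnt ligand genes, 3 regions had 71.4, 66.5 and 58.0. The gene D (Dichaete), a Sox factor, had 1 at 61.2 with 40.3 in replicate 1 and 17.7 in replicate 2.

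Of 27 mesoderm and muscle genes 6 bordered a gap with a region (22.2%), against 2.66% of protein-coding genes. The region at bin, a forkhead gene of the visceral mesoderm, stood at 145, with 85.6 in replicate 1 and 54.9 in replicate 2, 1314 bp from its start. The T-box genes Doc1 and Doc2, of the dorsal mesoderm and amnioserosa, had regions around them with 138 and 98.9, and the T-box gene mid had 113. The other regions of this list were named after their values were seen. A further pair beside Doc1 and Doc2 had 80.9 and 67.2. Those at lmd and zfh1, both zinc-finger genes, had 55.7 and 54.9, and that at zfh1 had 45.3 in replicate 1 against 9.18 in replicate 2. Of 42 genes of signalling ligands and receptors 7 bordered one (16.7%), among them the Wnt receptor gene fz at 109, the JAK/STAT ligand gene upd1 at 99.1 with 68.7 in replicate 1 and 29.8 in replicate 2, and 2 counted above, ptc and wg. Among those bordering a gap of over 10 kb the counts were 2 of 10 mesoderm genes and 6 of 16 signalling genes. The matching count for protein-coding genes was 162 of 1176 (13.8%), and the mesoderm count rests on 2 genes.

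Of 26 eye and antenna genes 3 bordered a gap with a region (11.5%), against 2.66% of protein-coding genes, and in gaps of over 10 kb 3 of 14 did, against 13.8%. The Pax genes eyg and toe shared 1 at 96.7, with 45.9 in replicate 1 and 47.9 in replicate 2, and B-H2, a homeobox gene, had 65.9, with 48.9 and 20.7. The gene hth did not border a gap with a region, but its start was the nearest coding start to 1 at 72.5. That region lay 9426 bp away and was in neither replicate's list. Of 23 neuroblast genes SoxN, Dr and nerfin-1 did (13.0%), at 68.9, 62.6 and 55.8, and none of these 3 regions was in either replicate's thresholded list. In gaps of over 10 kb 2 of 7 neuroblast genes had a region. Neuron genes had 2 of 16, ple at 123 and futsch at 103, and glia genes 1 of 11, pnt at 58.0. No homeotic gene (0 of 8) and no gene of the pipsqueak-domain list (0 of 7) bordered a gap with a region. By nearest coding start the homeotic list had 1 of 8 and the pipsqueak-domain list 1 of 7, against 1.98% of protein-coding genes. These were Dfd, 26992 bp from a region at 80.1 in neither replicate's list, and dan, at the region between danr and dan. Gut and fat body genes had 2 of 11, Dr and srp, trachea and epidermis genes 1 of 10, vvl, and Notch and E(spl) genes 1 of 19, E(spl)malpha-BFM at 114. Nuclear receptor and ecdysone genes had 1 of 29, Hr51 at 62.8, axon guidance and adhesion genes 3 of 31, robo2, klg and caps at 80.3, 70.3 and 44.1, and heat shock genes 1 of 16, the co-chaperone gene stv at 152. In gaps of over 10 kb 1 of 10 axon guidance and 0 of 6 nuclear receptor genes had a region. Ribosomal protein genes had 2 of 93 (2.15%), chemoreceptor genes 4 of 179 (2.23%) and cuticle protein genes 4 of 129 (3.10%), against 2.66% of protein-coding genes. In gaps of over 10 kb their counts were 0 of 7, 1 of 28 (3.57%) and 2 of 6, against 13.8%. The tRNA genes had 11 of 290 (3.79%) and microRNA genes 2 of 260 (0.769%), against 533 of 18277 genes of any kind (2.92%). In gaps of over 10 kb 6 of 19 tRNA genes and 1 of 7 microRNA genes had a region, against 249 of 1746 genes of any kind (14.3%). The highest signals in these last 5 lists were 60.5 at RpL17, 123 at Gr89a, 138 at Cpr76Ba, 313 at tRNA:Ser-GCT-2-2, in the gap it shares with foxo, and 126 at mir-4981. The gene across the gap had the nearer start for the regions given for ple, futsch, nerfin-1, Hr51, robo2, RpL17, tRNA:Ser-GCT-2-2 and mir-4981. The starts of ple and futsch lay 10332 and 10208 bp from theirs.

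Upstream of foxo, which encodes the forkhead factor of the insulin pathway, 2 regions lay 3378 and 4578 bp from the start. The nearer, at 3R:14053494-14053675, had 313, with 155 in replicate 1 and 156 in replicate 2. The farther had 170, with 96.0 in replicate 1 and 78.7 in replicate 2. Both were in both lists.

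The signals of the 355 regions ran from 43.6 to 719 with a median of 77.5 (quartiles 61.8 and 111), against 83.0 for all regions, 91.2 for promoter regions and 77.2 for regions within genes. A signal of 100 or more was found for 107 of them (30.1%), against 37.0% of all regions. In the thresholded lists of both replicates were 123, or 34.6% (95% exact interval 29.7 to 39.9%), against 40.2% of all regions. A further 67 were in the list of replicate 1 only, 62 in that of replicate 2 only and 103 in neither. The conservative list held 265 (74.6%), against 75.0% of all regions. These intervals treat regions as independent draws, and no test between the classes was run.

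Support by replicate followed signal closely. Of the 91 intergenic regions at 110 or more, 87.9% were in both lists, against 91.8% of promoter regions and 94.2% of regions within genes in that band. From 80 to 110 the shares were 47.4% of 78, against 39.9% and 48.4%. From 60 to 80, 5 of 111 were in both (4.5%), against 6.23% of promoter regions and 6.12% of regions within genes. Below 60 it was 1 of 75 (1.33%), against 0.0% of promoter regions and 0.0% of regions within genes. A ranked peak in each replicate was found for 337 of the 355, and the replicates' signals at them were within 2-fold for 283 (84.0%), against 85.3% of all regions. Spearman's rho across these 337 regions was 0.47, against 0.59 across 2484 regions of all classes. Regions share both libraries and the pooled list was selected on IDR, so the correlation is a description. At the 123 regions in both lists the summits of the replicates' strongest peaks were 16 bp apart in the median (quartiles 7.0 and 41.5 bp). Exactly 344 bp was the width of 317 regions (89.3%), against 85.4% of all regions. The other 38 had a median signal of 163.

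**Figure D1:**
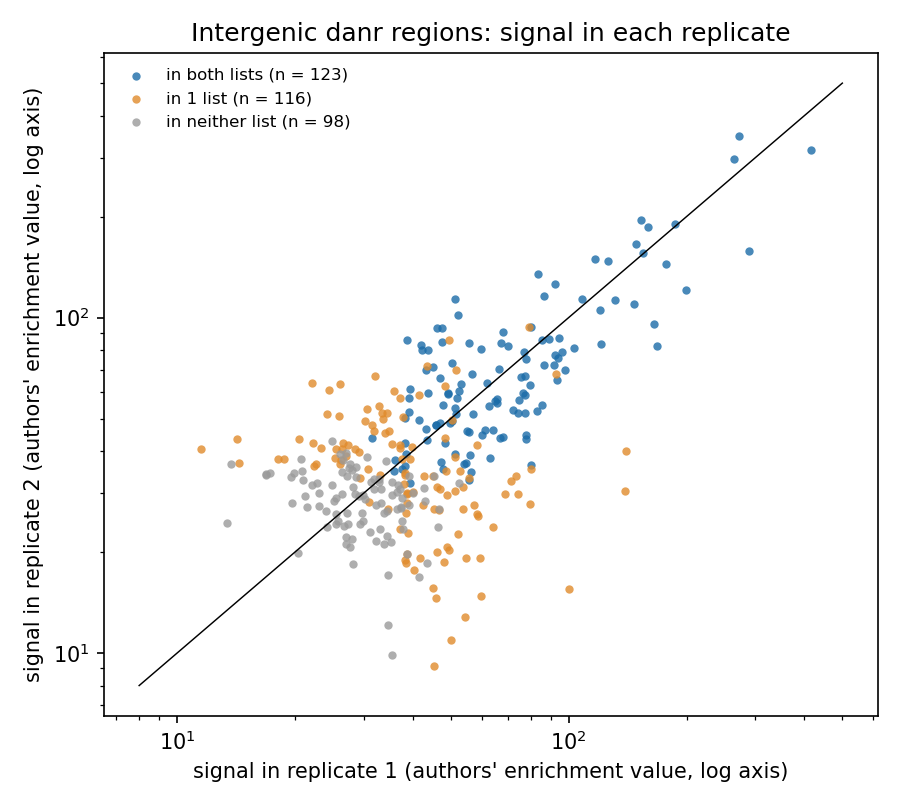
Signal of intergenic regions in replicate 1 (x axis) and replicate 2 (y axis), as the authors' enrichment value on log axes, for the 337 regions with a ranked peak in each. Points are coloured by the thresholded lists that hold the region, and the line marks equal signal. Regions in both lists fill the upper right, up to 416 in replicate 1 and 349 in replicate 2. Those in neither list lie at low signal in both replicates, and those in 1 list tend to be higher in that replicate.

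Density declined with distance from start sites. The sequence that could hold such a region, in no gene and more than 500 bp from a start, came to 38.6 Mb, 28.1% of the 7 chromosomes, and held 9.20 regions per Mb. From 500 to 1000 bp the density was 22.3 per Mb, from 1 to 2 kb 17.6, from 2 to 5 kb 11.8, from 5 to 10 kb 7.49, from 10 to 20 kb 5.97 and beyond 20 kb 1.60. Both replicates' own lists gave 13.6 per Mb from 500 to 1000 bp, and beyond 20 kb replicate 1 gave 0.854 and replicate 2 gave 2.14. Of 21 intergenic ranked rows that passed the score limit but were absent from the thresholded list, several lay beyond 20 kb. They do not enter these densities, which count 15 regions beyond 20 kb. The median distance was 2792 bp (quartiles 1277.5 and 5581.5), and 46 regions lay over 10 kb away. The closest to the 500 bp limit lay 513 bp from CG5973, 518 bp from CG10479 and 519 bp from Msr-110, with signals of 106, 217 and 169. Just short of it, outside every gene but counted as promoter regions, were summits 499, 496 and 487 bp from a start, with signals of 75.4, 68.3 and 69.3.

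**Figure D2:**
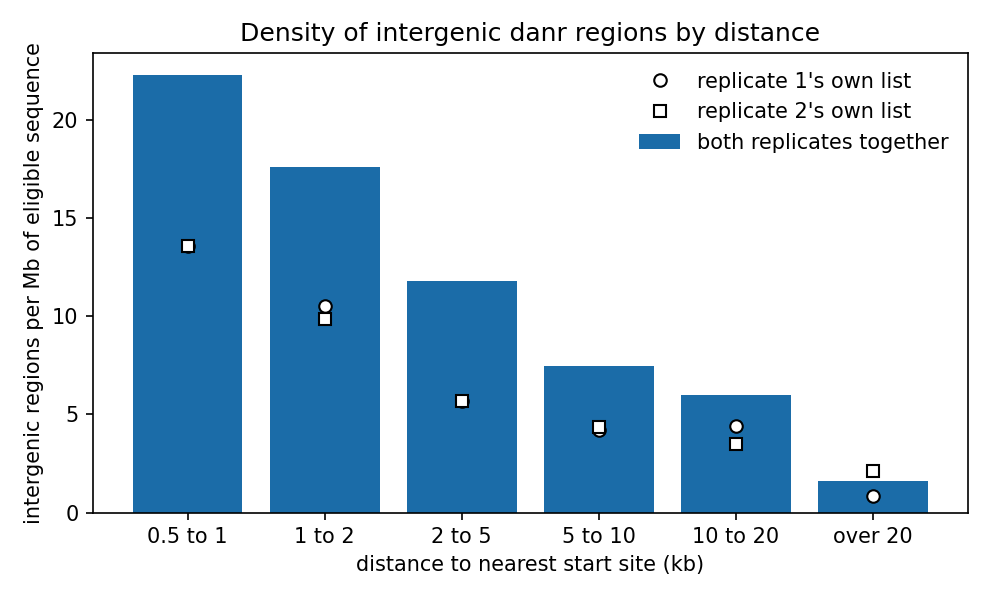
Intergenic regions per Mb of eligible sequence (y axis) by distance to the nearest start site in kb (x axis). Bars give the list of both replicates together, and open circles and squares the own lists of replicates 1 and 2. The bars step down from 22.3 to 1.60 per Mb, and the replicates differ most beyond 20 kb.

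Density also differed with the direction of the neighbouring genes. Upstream of the nearest start lay 227 regions (63.9%), in sequence that made up 58.1% of the eligible bases. Gaps between divergent genes, where both starts face the gap, held 107 regions at 14.1 per Mb, tandem gaps 159 at 8.12 and convergent gaps 88 at 8.74. In replicate 1's own list the densities were 8.54, 4.75 and 4.37 per Mb, and in replicate 2's 7.36, 4.96 and 4.87. Eligible sequence of divergent gaps lies upstream of a start on either side, and distance was not held fixed here. The gene edge nearest to the summit was a 5′ end for 184 regions and a 3′ end for 171. The rule left out summits within 500 bp of a start but not those near a 3′ end, which shapes this split. The split over eligible sequence was not measured here. For 117 regions the nearest start belonged to a gene that is not protein-coding, most often a gene of the class ncRNA (102), and the median distance to a coding start was 4215 bp.

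Regions were unevenly shared among the chromosomes. The arm 3L carried 111 at 12.4 per Mb of eligible sequence and 2L 80 at 11.9, against 70 on 3R at 9.14, 40 on X at 7.63 and 51 on 2R at 6.85. On X they were 7.50% of its 533 regions, and on 3L 19.9% of 558. Of the 21 intergenic ranked rows that passed the score limit but were absent from the thresholded list, 10 were on X. They do not enter these densities. The order of 3L and 2L above 3R, X and 2R was the same in each replicate's own list, from 6.70 to 7.75 per Mb for 3L and 2L and from 3.49 to 5.36 for the others. In gaps of at most 50 kb, which leaves out most of the sequence next to the centromeres, 3L had 16.3 per Mb, 2L 13.5, 3R 11.0, 2R 10.7 and X 9.29. Chromosome 4 had 2, both in replicate 1's list only and with no ranked peak in replicate 2. Y had 1, with no ranked peak in replicate 1.

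**Figure D3:**
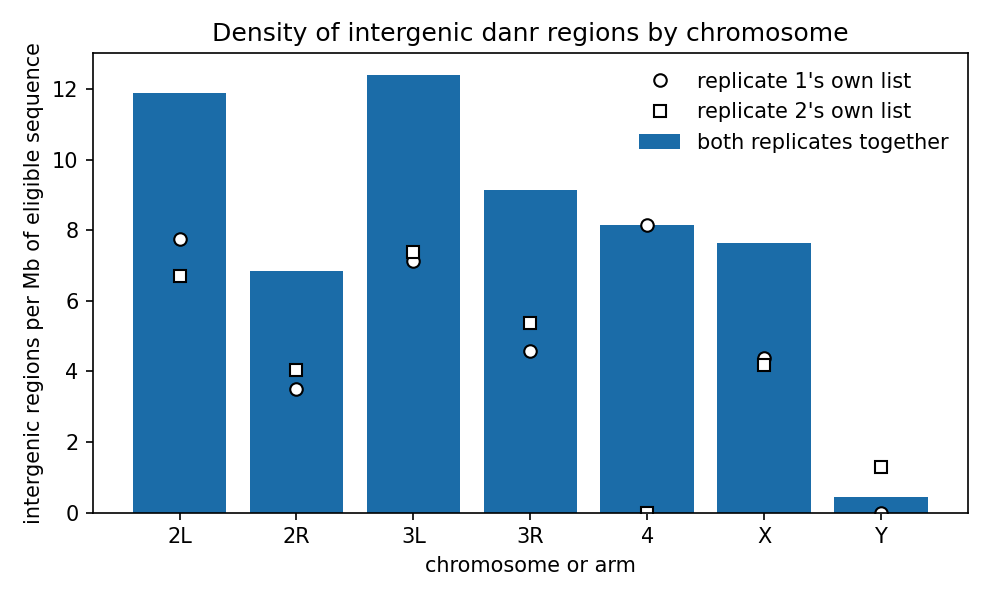
Intergenic regions per Mb of eligible sequence (y axis) by chromosome or arm (x axis). Bars give the list of both replicates together, and open circles and squares the own lists of replicates 1 and 2. The arms 3L and 2L stand highest at 12.4 and 11.9 per Mb, and the replicates disagree on 4 and Y.

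Regions deep in gene-poor sequence were supported unevenly by the replicates. Of the 15 over 20 kb from any start, 5 had no ranked peak in replicate 1 and 1 had none in replicate 2, and 3 were in both lists. The farthest, at 2R:33739-34082 and 292857 bp from DIP-lambda, had the lowest signal of all, 43.6, with 37.1 in replicate 2. Next came 2 regions on 3L, 198138 and 120763 bp from the pseudogene CR14578, with signals of 93.9 and 68.8, the Y region 83476 bp from Su(Ste):CR42422 with 67.5, and a region 59617 bp from CG41099 on 3R with 83.3. Of these 5 all but the first on 3L lacked a ranked peak in replicate 1. Annotated transposable elements held 5 of the 355 summits (1.41%), against 0.38% of all regions, and they make up 10.6% of the eligible sequence. The density there was 1.22 per Mb, against 10.1 in the rest. Of these 5 regions 4 had no ranked peak in 1 of the replicates. In the ranked list 5 other intergenic rows had their summit in such an element and a score of 830 or more. Those rows were absent from the thresholded list and do not enter the density. How well reads map to repeats was not measured here.

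Summits of intergenic regions sat on short A+T-rich stretches between less A+T-rich shoulders. The mean A+T content of the 101 bp at the summit was 66.0% ± 8.89 (SD over 355 windows), against 58.8% ± 7.49 for the mean of the 2 windows 1000 bp to either side and 59.3% ± 9.77 over 378918 windows tiling all eligible sequence. It was higher at the summit than in its flanks for 272 of 355 (76.6%), against 79.6% of all regions. At 300 bp to the left the mean was 55.36%, and at 200 bp to the right 55.62%, both below the flanks. Regions within genes had nearly the same profile, with 66.14% at the summit, while promoter regions had 67.66% and flanks of 55.84% and 55.68%. Intergenic peaks of the ranked list below the score limit averaged 55.4% ± 8.86 (30400 windows). Regions in both lists averaged 68.2%, those in 1 list 65.0% and those in neither 64.6%.

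**Figure D4:**
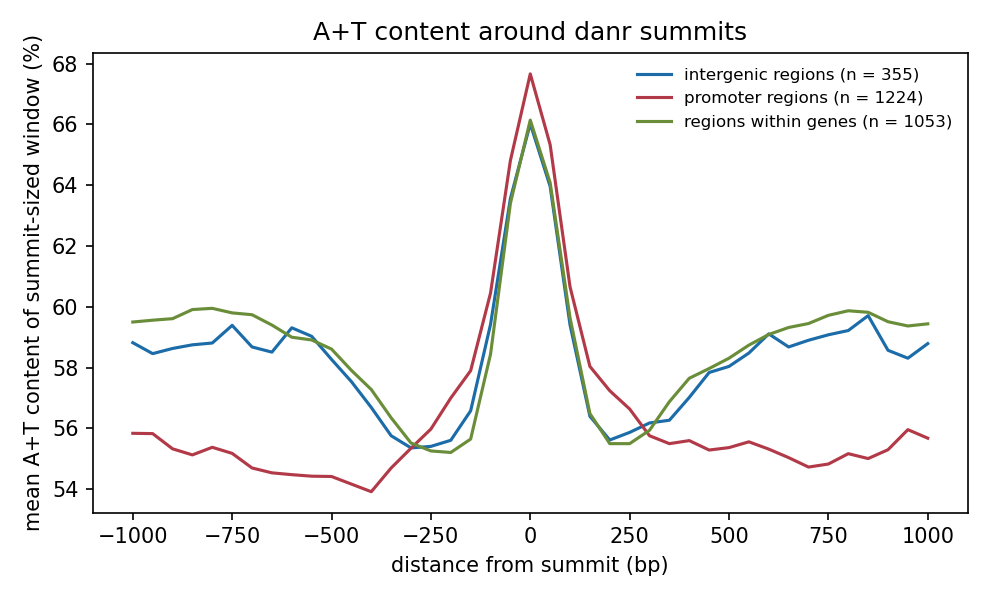
Mean A+T content of 101-bp windows in percent (y axis, not starting at 0) by distance from the summit in bp (x axis), for intergenic regions, promoter regions and regions within genes. The intergenic line peaks at 66.02% on the summit, dips to 55.36% at 300 bp to the left and returns to 58.82% at 1000 bp, and the line of regions within genes lies close to it.

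The TATA box core TATAAA, searched on both strands as all motifs here, was about as frequent at intergenic summits as in eligible windows of like base composition. It was in 71 of 355 summit windows, or 20% (95% exact interval 16 to 24.5%), against 23.2% of all regions, 14.5% of the flanks and 12.5% of eligible windows. Among windows of 60 to 70% A+T it was in 16.2% of intergenic summits and 15.7% of eligible windows, and at 70 to 80% in 30.0% and 31.1%. The repeat TATATA was in 11.5% of summits (all regions 12.3%, eligible windows 5.87%), and in the 60 to 70% band in 11.7%, against 7.14% of eligible windows, while at 70 to 80% it was in 14.5% and 15.3%. The run AAAAAA was in 29.0%, against 28.5% of all regions and 19.8% of eligible windows, and in the 60 to 70% band in 25.3% and 25.9%.

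The homeodomain core TAATTA was in a smaller share of intergenic summits than of eligible windows of like base composition. It was in 21 windows, 5.92% (95% exact interval 3.70 to 8.90%), against 9.50% of all regions and 7.35% of eligible windows. In the 60 to 70% band it was in 3.90% of summits and 8.64% of eligible windows, and in the 70 to 80% band in 10.9% and 15.9%. GCCAT, the core of the Pleiohomeotic site, was in 18.3% (14.4 to 22.7%), against 19.5% of eligible windows and 13.4% of all regions. At like base composition its share was higher at summits in the bands poorer in A+T. Below 50% A+T it was in 9 of 15 summits and 25.5% of eligible windows, and at 50 to 60% in 36.7% and 23.7%. At 60 to 70% the shares were 15.6% and 16.5%, and at 70 to 80% 8.18% and 8.93%. Above 80% it was in 1 of 16 summits and 2.98% of eligible windows. The Twist-type E-box CATATG was in 5.35%, against 4.41% of all regions and 2.82% of eligible windows. The DREF site TATCGATA was in 1 window (0.282%), against 0.988% of all regions and 0.221% of eligible windows. The Zelda site CAGGTAG was in 4 (1.13%), against 0.532% of all regions and 0.443% of eligible windows. Of the 23 motifs searched, the GAGA core GAGAG was in 9.58% of summits, against 11.2% of eligible windows, and the G tract GGGGG in 5.07%, against 8.03%. TATAAA and TATATA can overlap in 1 stretch, as can TATAAA and AAAAAA, so their shares are not independent. Among all 6-mers, ATATTA differed most in share between intergenic summits and eligible windows, with 24.2% (19.9 to 29.0%) against 10.2%, and it was in 22.6% of all regions. At 60 to 70% A+T it was in 19.5% of intergenic summits and 12.1% of eligible windows, at 70 to 80% in 41.8% and 27.5%, and above 80% in 37.5% of 16 summits and 50.7%. AAAGTA was in 18.0% against 8.41%, and in 13.8% of the regions of the other classes. At 60 to 70% A+T it was in 22.1% of intergenic summits and 10.9% of eligible windows, but at 70 to 80% in 15.5% and 15.2%. Both 6-mers were chosen from these values.

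**Figure D5:**
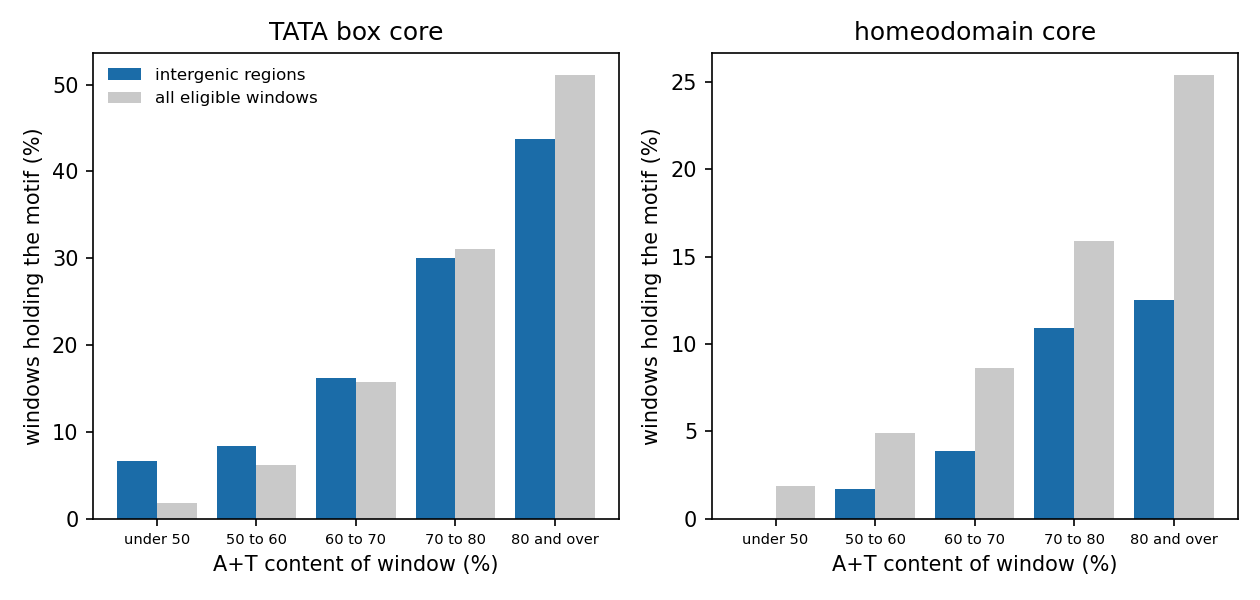
Share of 101-bp windows holding a motif in percent (y axis) by A+T content of the window in percent (x axis), for intergenic summits and for all windows of eligible sequence. The left panel shows the TATA box core, with 16.2% and 15.7% at 60 to 70% A+T, and the right panel the homeodomain core, with 3.90% and 8.64% there. The lowest and highest bands hold 15 and 16 summits.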

How the data were processed

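ChIP-seq peaks of 2 biological replicates of danr-eGFP embryos, with 1 technical replicate each, were used as deposited, on dm6. Per the labels, chromatin was sonicated to a size range of 200 to 800. The sample descriptions name an antibody to GFP and the antibody field names danr. The deposited lists give, for each peak, the authors' signal (its enrichment value, whose scaling is not given) and the authors' score, an IDR transform capped at 1000, for which 830 equals an IDR of 0.01. Which aligner and peak caller were used is not given in the sources used here, and a control named in the labels was not analysed here. Depth is unknown, so no counting error can be set on a signal. The labels do not say whether the replicates came from separate cultures of flies.

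From 2799 rows of the series' thresholded list, rows sharing at least 1 bp were merged. Summits were assigned with the gene annotation of Ensembl release 115. A summit counted as supported by a replicate where that replicate's thresholded list overlapped the region. Base composition and motifs were read in windows of 101 bp, and shares have exact Clopper-Pearson intervals at 95%, which cover counting error over regions only. With 1 group and no control there was no test between conditions, and no test across regions was run. Calculations used Python 3.11.15, NumPy 2.4.6, pandas 2.3.3 and SciPy 1.17.1, and the steps were tested on simulated data.

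The members and the 20 gene lists were chosen with earlier results of these data known. Genes named are those nearest the 15 strongest regions, beside the 5 farthest, and at the 5 gaps with most regions (ties broken by the strongest region). Also named are those at the region between danr and dan, and some or all of those at the 4 strongest regions per gene list. Others are marked as chosen after their values were seen.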

Additional observations from a re-analysis of the deposited data

Results flagged for a closer look

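Outside the 7 chromosomes the list held 21 regions, all on scaffolds whose names assign them to X without a position on it. They enter no comparison above, also none of X, and could not be classed as intergenic. Their median signal was 65.5, from 50.5 to 198. Of these, 20 were in the thresholded list of replicate 2 and 0 in that of replicate 1. No control library was analysed here, so a background level for them was not measured.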

How the results depend on the processing

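No paired analysis was possible because there is 1 group. Of 82 alternative values for 9 results, 47 stayed within the limit set for their kind and 35 moved beyond it. No direction was set for these results, so a reversal was not scored. The limit was a factor of 1.5 for the number of regions, the 95% exact interval for the share in both lists, and 1 SD between the values from the 2 replicates' own lists for the rest. Leaving out either replicate and using the other's own list gave 202 to 207 regions, 5.23 to 5.36 per Mb, a median signal of 51.7 to 53.7 and an intergenic share of 12.3 to 13.3%. It also gave a median distance of 2464.5 to 3172 bp, 62.3 to 64.4% upstream, an A+T content of 64.9 to 66.8% and TATAAA in 17.4 to 19.3%. Regions with a signal above the median of all regions numbered 156, at 4.04 per Mb, with an intergenic share of 11.9%, a median signal of 119, 73.1% in both lists and 61.5% upstream. The conservative list gave 7.36 per Mb, a median signal of 85.7 and 43.3% in both lists, and rows left unmerged gave 9.66 per Mb and a median signal of 75.0. A promoter limit of 1000 bp gave 8.14 per Mb, a share of 11.1%, a median distance of 3735 bp and 58.8% upstream. Protein-coding genes alone gave 10.2 per Mb, 16.4%, a median signal of 79.3, 4216.5 bp and 66.2% upstream. Transposable elements counted as genes gave 10.3 per Mb and 65.4% upstream, and whole regions outside genes 8.83 per Mb and 66.0% upstream. Windows of 100 bp either side of the summit gave an A+T content of 63.8% and TATAAA in 33.2%, as a longer window holds more letters.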

Other observations

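The ranked list held 112 rows at or above the score limit of 830 that were absent from the thresholded list, of which 21 lay in intergenic sequence of the 7 chromosomes. Their median signal was 62.8. The strongest, at 294, lay on 3R 923 bp from lncRNA:CR45643, in the neighbourhood of the region of signal 621 described above. Of the 21, 10 were on X and 5 had their summit in a transposable element. What removed these rows was not described in the sources used here.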
